A study of Mus musculus with 21 samples.

Results

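The integrin and laminin genes were all rows of the table that fit a rule on the symbol. It takes Itga or Itgb followed by a number, with a final b allowed as in Itga2b. It also takes Lama, Lamb or Lamc followed by a number. This gave 31 of 24623 genes. They comprised 12 integrin alpha genes, 8 integrin beta genes, 5 laminin alpha genes, 3 laminin beta genes and 3 laminin gamma genes. Integrin alpha chains with a letter in place of the number, such as Itgav, were outside this rule. The RNA came from 2 clones of mouse pancreatic tumour cells, 6694c2 and 6419c5, which were implanted under the skin of C57BL/6 mice and sorted out of the tumours after 3 weeks with no treatment given. Each clone had a line that carries the clone name alone, called WT here, and a pair of lines labelled EPHA2-KO, called KOA and KOB after the letters of the table. EPHA2 is a receptor tyrosine kinase for ephrins, and the series set EPHA2-WT against EPHA2-KO in each clone. Clone 6694c2 had 4 libraries of each line and clone 6419c5 had 3 of each, 21 libraries in 6 lines. How EPHA2 was edited and whether a KO line was grown from 1 cell are not stated in the labels. The labels also do not say that libraries of a line came from separate mice, so the spread among libraries within a line, which lies behind each p-value, may be technical. In the limma fit this spread was pooled over the 6 lines, so a library of 1 clone can change calls in the other. As each clone had a single WT line and 2 KO lines, the loss of EPHA2 and other differences between lines cannot be told apart.

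Integrins are surface receptors made of 1 alpha and 1 beta chain, and the pair decides the ligand. The beta-1 chain, encoded by Itgb1, pairs with many alpha chains that bind collagens, laminins or fibronectin, whereas the beta-4 chain, encoded by Itgb4, pairs with alpha-6 alone and anchors epithelial cells to the basement membrane at hemidesmosomes. Laminins are the main adhesive proteins of basement membranes, each a trimer of 1 alpha, 1 beta and 1 gamma chain. Laminin-511 is made of the products of Lama5, Lamb1 and Lamc1, and laminin-332, a ligand of alpha-3 and alpha-6 integrins that carcinoma cells often secrete, contains those of Lama3 and Lamb3.

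Values were TPM, a relative transcript level corrected for transcript length that can be compared between genes. Read depth cannot be recovered from TPM, so the precision of a level is the spread between libraries. Every library summed to 1000000 TPM, with 12437 to 13316 genes at 1 TPM or more. Pearson's r of the members' log2(TPM + 1) between libraries of 1 line ran from 0.937 to 0.999 across genes. Epha2 itself stood at 245 ± 5.11 TPM (SD, n = 4) in 6694c2 WT, 115 ± 18.3 in its KOA and 97.8 ± 11.4 in its KOB, a log2 fold change of -1.21 ± 0.090 (adjusted p 1.5e-08). In 6419c5 it stood at 176 ± 13.5 TPM (SD, n = 3) in WT, 151 ± 6.05 in KOA and 197 ± 25.7 in KOB (-0.034 ± 0.10, adjusted p 0.819). A level over the whole gene misses an edit that does not remove the transcript, so the labels of 6419c5 could not be checked in this way. The locus annotated as Mir6236 took 145023 TPM in 6694c2 KOB 4 and 91142 TPM in 6419c5 WT 3, against 22665 to 54492 TPM in the other libraries. Within 6694c2 KOA, libraries 1 and 2 stood apart from libraries 3 and 4 in several members and in the epithelial gene Epcam (53.0, 10.8, 1.07 and 0.864 TPM). Markers of tumour epithelium summed to between 5747 and 16451 TPM per library over 8 genes, most of it from Krt8, Krt18 and Krt19, which were high in every library. Cldn4 (0.0566 and 0.354 TPM) and Muc1 (9.86 and 12.4 TPM) were low with Epcam in libraries 3 and 4 of 6694c2 KOA, so these 2 libraries met the label of tumour epithelium by part of its markers only.

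The members spanned a wide range of levels. In 6694c2 WT the highest integrin gene was Itga3 at 426 ± 8.22 TPM (SD, n = 4), followed by Itgb1 at 372 ± 8.92, Itgb4 at 212 ± 10.9 and Itga6 at 168 ± 7.08. In 6419c5 WT the order was another one, with Itgb1 first at 500.1 ± 99.5 TPM (SD, n = 3), then Itgb5 at 179.9 ± 6.86, Itga3 at 166 ± 12.7 and Itga6 at 154 ± 25.6. The libraries of neighbours among the last 3 of these overlapped. Among laminins Lama5 led in 6694c2 WT (202 ± 13.7 TPM), and Lamb1 (142 ± 26.2 TPM) and Lama5 (136 ± 25.1 TPM) overlapped at the top in 6419c5 WT. Of the 31 members, 19 stood at 1 TPM or more in every library. The other end held 5 members that did not reach 1 TPM in 3 libraries and were not tested. Among them Itga11, a collagen receptor chain of fibroblasts, had line means of 0.192 to 0.858 TPM, and Itga8 had 0.0149 to 0.0406 TPM. The remaining untested members were Lama1 at line means of 0.0208 to 0.502 TPM, Lama2 at 0.0882 to 0.441 TPM and Lamc3 at 0.00395 to 0.0385 TPM.

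**Figure D1:**
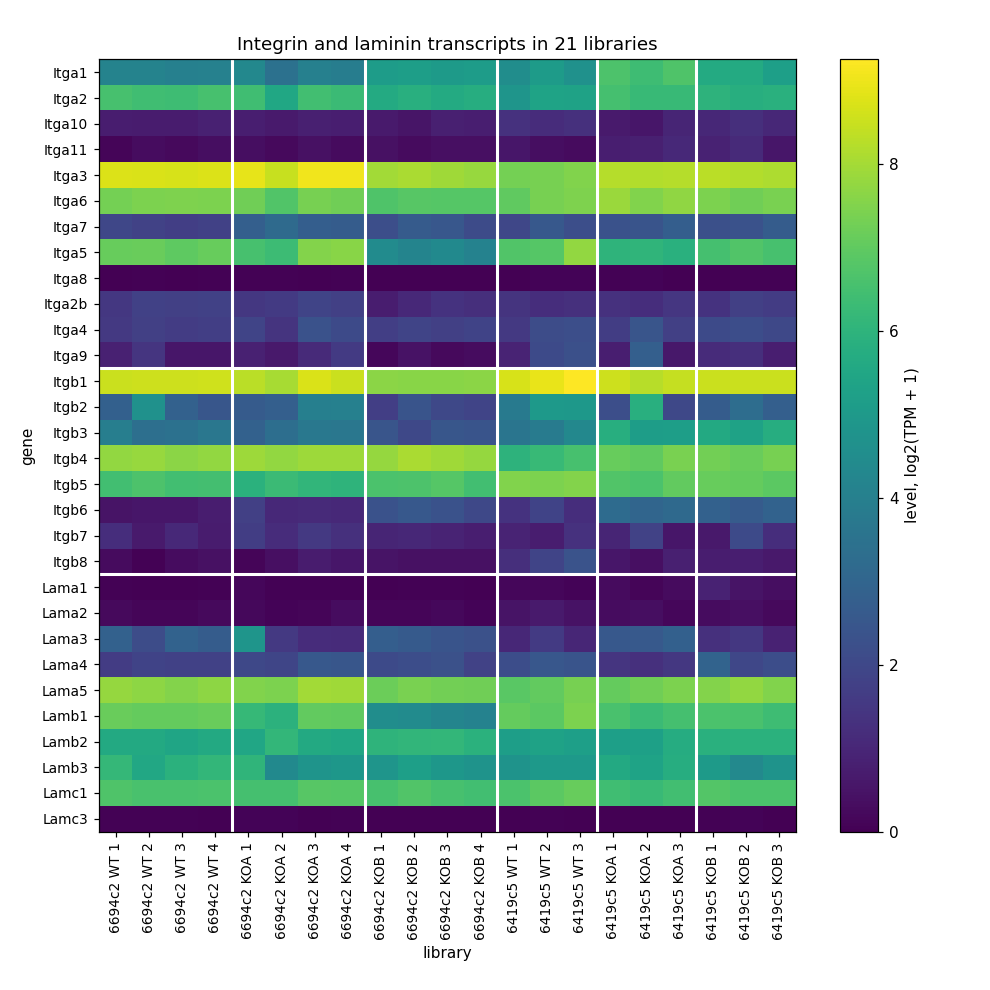
Level of 30 of the integrin and laminin genes in each of the 21 libraries, as log2(TPM + 1); rows are genes by role, columns are libraries by line, and the colour scale is the level. Itga3, Itgb1, Itga6, Itgb4 and Lama5 are high in all libraries, while Itga8, Lama1, Lama2 and Lamc3 are near 0 throughout, and Itga5 and Lamb1 are lower (darker) in the 4 libraries of 6694c2 KOB than in the other lines.

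Differences were tested with limma on log2(TPM + 1) in 1 fit over all 14337 genes that reached 1 TPM in 3 or more libraries, which held 26 members, 18 integrins and 8 laminins. A gene was called at a Benjamini-Hochberg adjusted p under 0.05 over all tested genes. Each log2 fold change is KO less WT, is given ± its standard error, and is the mean of KOA and KOB unless a line is named. On this scale 1 is 1 doubling, and adding 1 TPM understates the change of genes at low levels. In 6694c2, 4 members rose and 9 fell of 26, where 37.4% of all tested genes were called (23.9% higher and 13.5% lower). The median log2 fold change was -0.17 over the members and 0.07 over all genes. In 6419c5, 8 rose and 8 fell of 26, against 41.4% of all genes called (26.5% higher and 15% lower), with medians of 0.19 and 0.08. Without library WT 3 of 6419c5 the count in that clone was 10, with 8 higher and 2 lower. Itgb8 no longer passed the expression filter in that fit, so its call was lost by not being tested. The KO effect differed between the clones for 13 of 26 members, 4 with a higher value in 6694c2 and 9 with a lower one, where 28.6% of all genes were called (13% and 15.6%). The counts include Itgb8, which passed the filter only through 6419c5 WT, and without it 7 of 25 fell in 6419c5 and the clones differed for 12. Integrins gave 3 higher and 7 lower of 18 in 6694c2 and 6 and 5 in 6419c5, and laminins gave 1 and 2 of 8 and then 2 and 3. When line was treated as a random effect, so that the spread between KO lines entered the error, 0 members were called by limma in 6694c2 (3 at an unadjusted p under 0.05), and Itgb4 (adjusted p 0.0142) and Itgb6 (adjusted p 0.0388) were the 2 called in 6419c5. The difference between clones gave 0 calls in that fit, with 5 at an unadjusted p under 0.05.

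Scaling mattered for the balance of all genes. The split of higher against lower calls over all genes was 3429 to 1932 in 6694c2 and 3796 to 2146 in 6419c5. It became 2716 to 3020 and 3174 to 3120 after median-of-ratios scaling, and 2616 to 2907 and 3217 to 3284 after quantile normalization. The median over all genes moved by over 0.1 in 6419c5 KOB against WT, from 0.10 to -0.01 with median-of-ratios scaling, and the members' count there moved from 8 higher and 4 lower to 8 and 6, or 7 and 7 with quantile normalization. With quantile normalization the median also moved by over 0.1 in 6694c2 KOA against WT (0.078 to -0.024) and between the WT lines (-0.108 to 0.002). For the WT lines the all-gene split of 3079 higher and 4590 lower became 4007 and 3926 with median-of-ratios scaling.

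**Figure D2:**
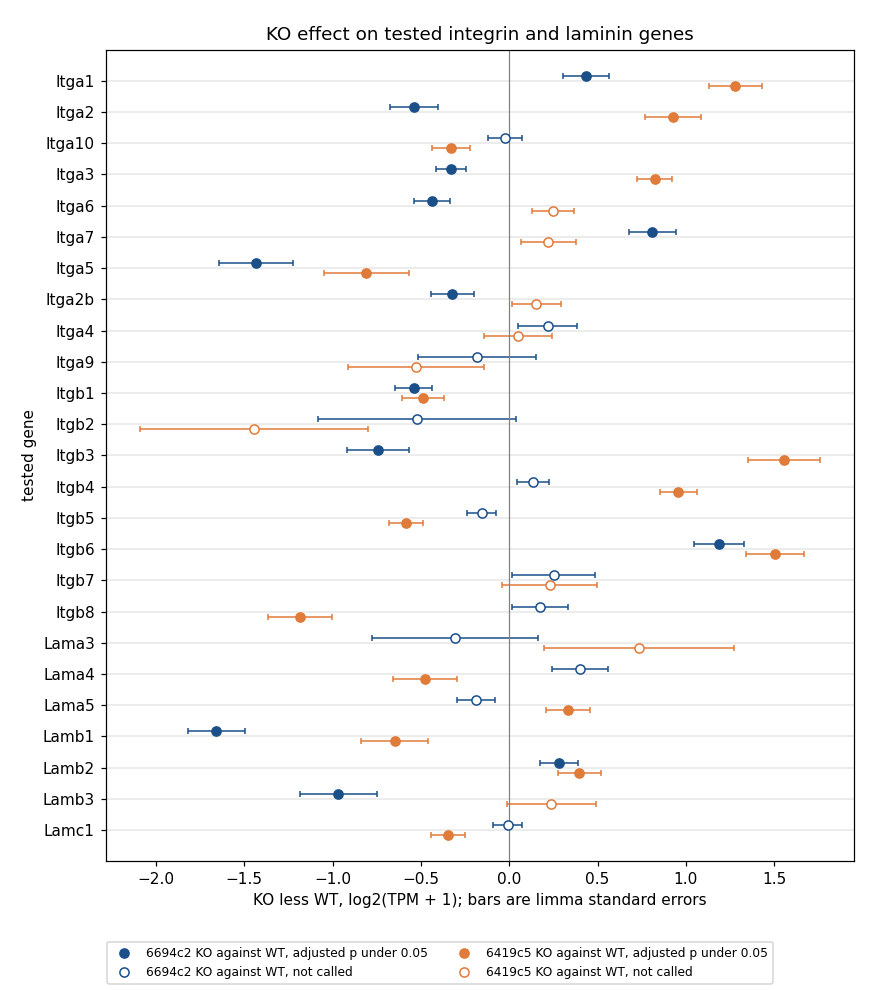
KO effect in each clone for 25 of the tested members, as log2 fold change (KO less WT) with bars of 1 standard error; filled points had an adjusted p under 0.05. Itgb6 lies to the right and Lamb1 and Itga5 to the left in both clones, while Itgb3, Itga2 and Itga3 lie on opposite sides of 0.

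Both clones called 3 members higher (Itga1, Itgb6 and Lamb2), 3 lower (Itga5, Itgb1 and Lamb1) and 3 in opposite directions (Itga2, Itga3 and Itgb3). Over all 14337 genes these shares were 11.1% higher in both, 4.46% lower in both and 3.65% opposite. Another 11 members were called in 1 clone and 6 in none, where 40.4% of all genes were called in 1 clone and 40.4% in none. The 250 bases before the RefSeq start site on GRCm38.p6 are shown for 4 of the 6 members called the same way in both clones, because they cover both directions and include the beta-1 and alpha-5 chains, which pair with each other. Capitals mark GGGCGG, the GC box bound by Sp1, or CAGGTG, an E-box bound by Snail and Zeb factors, on either strand. The order is Itgb6 at chr2:60722604-60722853 (minus strand), Lamb1 at chr12:31265043-31265292 (plus strand), Itgb1 at chr8:128685404-128685653 (plus strand) and Itga5 at chr15:103366792-103367041 (minus strand).
Itgb6: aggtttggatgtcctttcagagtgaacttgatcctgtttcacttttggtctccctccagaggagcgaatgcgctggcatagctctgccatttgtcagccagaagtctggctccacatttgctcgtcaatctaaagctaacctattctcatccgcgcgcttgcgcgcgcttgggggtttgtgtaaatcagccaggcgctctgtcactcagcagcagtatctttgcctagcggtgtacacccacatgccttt
Lamb1: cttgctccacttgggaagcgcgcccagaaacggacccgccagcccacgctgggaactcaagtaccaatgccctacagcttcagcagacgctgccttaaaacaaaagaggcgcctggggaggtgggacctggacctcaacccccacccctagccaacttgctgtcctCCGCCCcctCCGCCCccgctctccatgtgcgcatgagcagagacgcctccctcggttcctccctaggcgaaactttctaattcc
Itgb1: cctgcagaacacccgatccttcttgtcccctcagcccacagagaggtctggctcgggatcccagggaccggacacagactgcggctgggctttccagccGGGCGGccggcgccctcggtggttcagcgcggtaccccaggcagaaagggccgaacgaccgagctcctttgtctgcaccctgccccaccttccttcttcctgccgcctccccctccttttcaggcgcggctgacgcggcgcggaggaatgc
Itga5: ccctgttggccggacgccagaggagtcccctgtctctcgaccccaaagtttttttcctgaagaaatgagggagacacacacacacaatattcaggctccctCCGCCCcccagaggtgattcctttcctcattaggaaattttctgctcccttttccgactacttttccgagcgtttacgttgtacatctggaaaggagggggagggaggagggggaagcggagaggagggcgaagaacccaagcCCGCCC
These windows held 0 GC boxes for Itgb6, 2 for Lamb1, 1 for Itgb1 and 2 for Itga5, and none held the E-box. Their GC content was 52%, 62%, 68% and 55.6%, where the median of all promoters was 52.4%. Of the 31 members 20 had a promoter in the table, and 7 of these held a GC box in at least 1 window. It was in 32.7% of all 32851 windows, or in at least 1 window of 35.4% of 27025 genes. The E-box was in 8 of the 20 members, in 17.2% of all windows and in 19.4% of genes. Itgb6 has a further RefSeq start whose window does hold the E-box, and the RefSeq starts of Itgb6, Lamb1 and Itga5 are not those of the GENCODE gene models. These words were chosen with results of these data in view, and a match is a description of letters.

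Itgb6 encodes the beta-6 chain, an epithelial chain whose pair with alpha-v binds and activates latent TGF-beta. Its gene lies at chr2:60598292-60722643 on the minus strand (GENCODE, GRCm38). The level of Itgb6 was 0.413, 0.484, 0.465 and 0.667 TPM in the libraries of 6694c2 WT, 2.397, 1.08, 1.16 and 1.12 in KOA and 4.0005, 4.79, 4.0 and 3.05 in KOB. In 6419c5, Itgb6 stood at 1.53, 2.63 and 1.29 TPM in WT, 8.49, 7.13 and 7.86 in KOA and 6.25, 5.28 and 6.43 in KOB. Every KO library of a clone was above every WT library of that clone, at low levels throughout. Itgb6 rose by a log2 fold change of 1.19 ± 0.14 (adjusted p 4.03e-06) in 6694c2 and 1.503 ± 0.16 (adjusted p 1.16e-06) in 6419c5. It was called in each KO line, at 0.66 (KOA) and 1.71 (KOB) for 6694c2 and at 1.67 (KOA) and 1.33 (KOB) for 6419c5. Itgb6 was not called for the difference of the clones (-0.32 ± 0.22, adjusted p 0.300), which changed sign at a pseudocount of 0.1.

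Lamb1 encodes the laminin beta-1 chain, part of laminin-511 and laminin-111, from chr12:31265234-31329644 on the plus strand. Library levels of Lamb1 were 139, 131, 132 and 139.8 TPM in 6694c2 WT, 73.0, 60.6, 129 and 126 in KOA and 22.0, 20.9, 17.6 and 16.2 in KOB. For 6419c5 the same gene gave 134, 121 and 172 TPM in WT, 96.1, 77.6 and 90.3 in KOA and 96.9, 96.0 and 81.5 in KOB. All KO libraries lay below all WT libraries of their clone, and 6694c2 KOB lay far below the rest, whereas libraries 3 and 4 of 6694c2 KOA nearly reached WT. Lamb1 fell by 1.66 ± 0.16 (adjusted p 3.99e-07) in 6694c2 and fell by 0.65 ± 0.19 (adjusted p 0.00986) in 6419c5, and the difference was called (-1.01 ± 0.25, adjusted p 0.00543). By line the log2 fold change was -0.55 (KOA) and -2.77 (KOB) for 6694c2 and -0.68 (KOA) and -0.62 (KOB) for 6419c5. The 6419c5 call was lost without WT 3 (-0.51, adjusted p 0.0740), the highest WT library, as were the calls of its KOA (-0.53, adjusted p 0.109) and KOB (-0.48, adjusted p 0.124). Leaving out KOA 2 or KOB 3 of 6419c5 ended the call of that line (-0.59, adjusted p 0.0814 and -0.54, adjusted p 0.0956). The KOA call of 6694c2 was lost without any 1 of WT 1 to WT 4, KOA 1, KOA 2 or KOB 3, at values of -0.56 to -0.35.

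Itgb1 encodes the beta-1 chain shared by most matrix-binding integrins, at chr8:128685654-128733200 on the plus strand. In 6694c2 its levels were 359, 374, 374 and 379.7 TPM in WT, 309, 261, 424 and 366 in KOA and 197, 192, 194 and 197 in KOB. WT of 6419c5 gave 409, 484 and 606 TPM, KOA 369, 306 and 341 and KOB 365, 366 and 363. The low line was KOB of 6694c2, while the highest library of its KOA was above all WT libraries. In 6419c5 every KO library was below every WT library. Itgb1 fell by 0.54 ± 0.10 (adjusted p 0.000444) in 6694c2 and fell by 0.49 ± 0.12 (adjusted p 0.00281) in 6419c5. KOA of 6694c2 was not called by itself, and the KOB call of 6419c5 (-0.43) was lost without WT 3 (-0.29, adjusted p 0.106).

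Itga5 encodes the alpha-5 chain, which with beta-1 forms the main fibronectin receptor, at chr15:103344286-103366763 on the minus strand. Itga5 stood at 136, 139, 122 and 138 TPM in 6694c2 WT, 93.3, 79.3, 182 and 191 in KOA and 21.3, 16.9, 19.8 and 16.2 in KOB. Clone 6419c5 held 105, 112 and 215 TPM in WT, 64.1, 65.6 and 57.1 in KOA and 91.1, 105 and 92.9 in KOB. KOA of 6694c2 straddled WT, with libraries 1 and 2 below it and 3 and 4 above it, and KOB was several times lower than either. One WT library of 6419c5, WT 3, was well above the other two, and KOB 2 stood at the level of the lowest WT library. Itga5 fell by 1.43 ± 0.21 (adjusted p 3.22e-05) in 6694c2, where KOB alone gave -2.79 ± 0.24 (adjusted p 3.71e-08). In 6419c5 it fell by 0.81 ± 0.24 (adjusted p 0.0117), with KOA at -1.12, and this call was lost without WT 3 (-0.48, adjusted p 0.130). No call was made for the difference of the clones (-0.62 ± 0.32, adjusted p 0.158), and one was made without WT 3 (-0.95, adjusted p 0.0267).

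**Figure D3:**
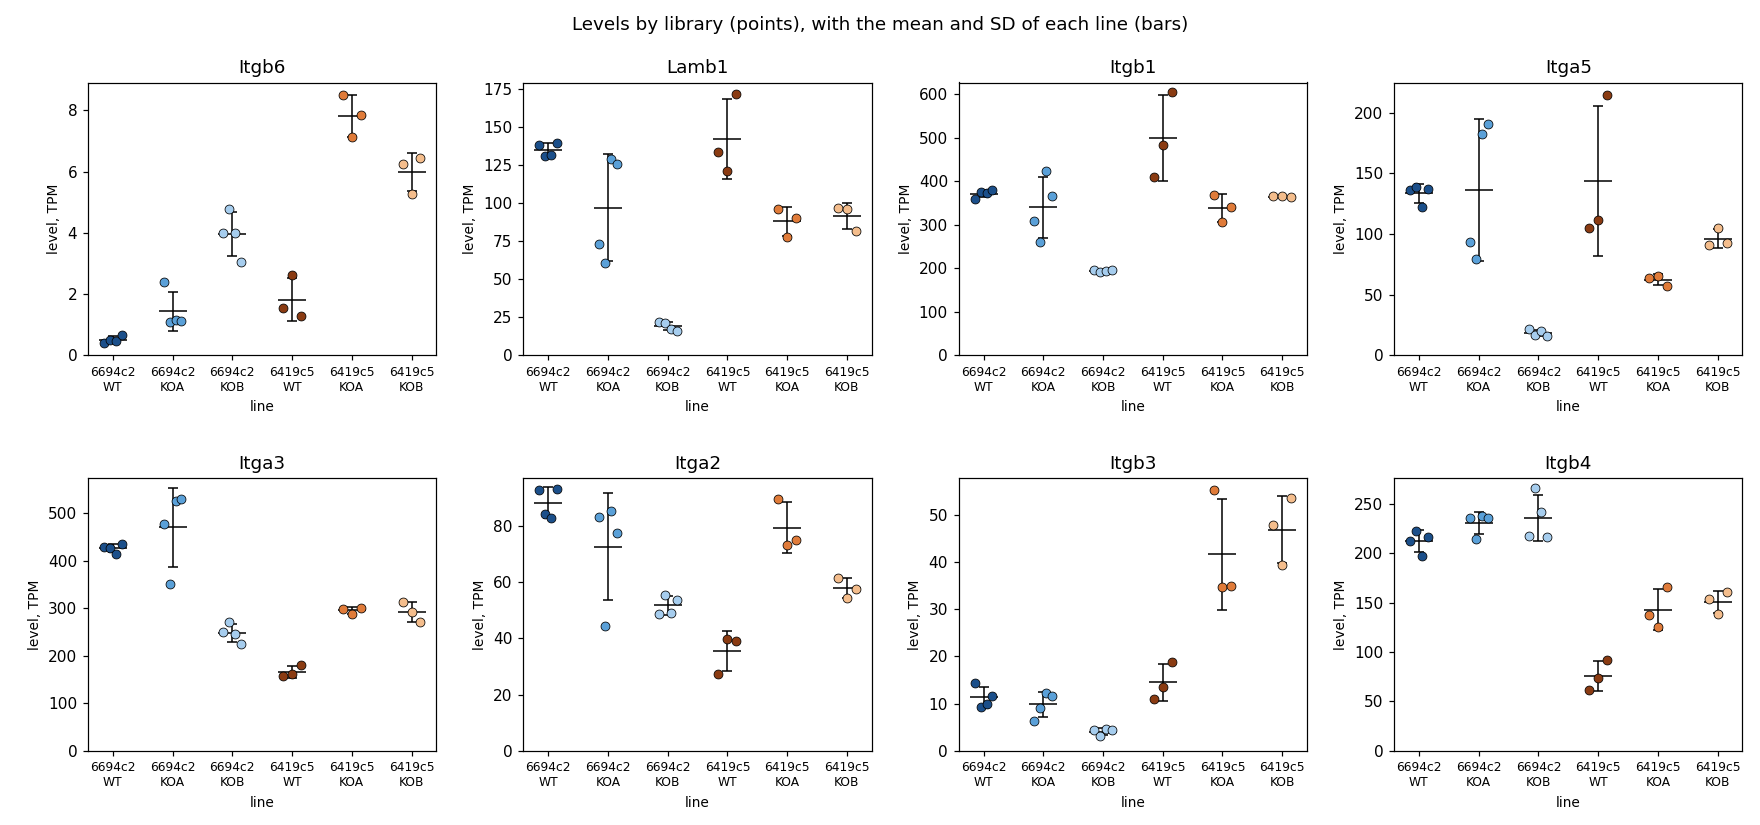
TPM of 8 integrin and laminin genes in each library (points), with the mean and bars of 1 SD of each line; n is 4 per line in 6694c2 and 3 in 6419c5. Itgb6 is higher and Lamb1 lower in KO libraries of both clones, and Itga3, Itga2 and Itgb3 are lower in 6694c2 KOB and higher in both KO lines of 6419c5 than in the WT line of the clone.

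The collagen-binding alpha chains, alpha-1 and alpha-2, are both encoded on chromosome 13 and pair with beta-1. Itga1 gave 16.5, 16.4, 15.3 and 15.7 TPM in 6694c2 WT, 19.1, 9.85, 15.5 and 14.2 in KOA and 33.9, 35.1, 31.5 and 33.3 in KOB. In the 6419c5 libraries Itga1 gave 22.3, 32.5 and 24.8 TPM in WT, 101, 82.0 and 102 in KOA and 49.4, 49.6 and 36.3 in KOB. KOA of 6694c2 overlapped WT, and the other 3 KO lines did not overlap the WT line of their clone. Itga1 rose by 0.44 ± 0.13 (adjusted p 0.0135) in 6694c2 and 1.28 ± 0.15 (adjusted p 2.76e-06) in 6419c5, a difference that was called (-0.84). The line values were -0.15 ± 0.15 (adjusted p 0.517) in KOA of 6694c2, which was not called, 1.02 in its KOB, 1.81 in KOA of 6419c5 and 0.75 in its KOB.

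Itga2 moved in opposite directions in the clones. Its levels were 92.8, 84.2, 82.9 and 93.3 TPM in 6694c2 WT, 83.1, 44.4, 85.2 and 77.6 in KOA and 48.7, 55.6, 49.2 and 53.8 in KOB. Levels in 6419c5 were 27.5, 39.8 and 39.2 TPM in WT, 89.8, 73.3 and 74.9 in KOA and 61.6, 54.5 and 57.5 in KOB. KOB of 6694c2 was below WT throughout, 1 of the 4 KOA libraries was lower still, and all KO libraries of 6419c5 were above WT. Itga2 fell by 0.54 ± 0.14 (adjusted p 0.00457) in 6694c2 and rose by 0.93 ± 0.16 (adjusted p 0.000134) in 6419c5 (difference -1.47 ± 0.21, adjusted p 5.09e-05). By line it gave -0.32 ± 0.16 (adjusted p 0.158) in KOA of 6694c2, which was not called, and -0.76 in its KOB. The values in 6419c5 were 1.15 (KOA) and 0.71 (KOB). The WT lines differed as well, with Itga2 higher in 6694c2 by 1.31 ± 0.17 (adjusted p 4.73e-06).

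The laminin-binding alpha chains alpha-3 and alpha-6 had the highest line means of the alpha chains in all 6 lines. In single libraries Itga5 exceeded both in 6419c5 WT 3, and exceeded Itga6 in 6694c2 KOA 3 and 4. Itga3, whose product binds laminin-332 and laminin-511, stood at 428, 427, 415 and 434 TPM in 6694c2 WT, 476, 350.2, 526 and 529 in KOA and 249.98, 271, 245 and 225 in KOB. Its 6419c5 levels were 157, 160.5 and 180.2 TPM in WT, 299, 287 and 300.3 in KOA and 314, 292 and 272 in KOB. The KOB libraries of 6694c2 were below WT, 3 of the 4 KOA libraries were above WT, and both KO lines of 6419c5 were above WT with no overlap. Itga3 fell by 0.33 ± 0.086 (adjusted p 0.00554) in 6694c2, with -0.78 in KOB, and rose by 0.82 ± 0.10 (adjusted p 3.5e-06) in 6419c5. The clones' effects stood -1.15 ± 0.13 (adjusted p 5.11e-06) apart, and the WT line of 6694c2 exceeded that of 6419c5 by 1.36 ± 0.11 (adjusted p 1.16e-08).

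Itga6 encodes the only partner of beta-4, and can also pair with beta-1. It gave 158, 171, 173 and 171 TPM in 6694c2 WT, 150.3, 105, 161 and 149.6 in KOA and 104, 113, 110.3 and 112 in KOB. WT libraries of 6419c5 gave 126, 162 and 175 TPM, KOA 229, 177 and 209.6 and KOB 169, 150.2 and 165. The KOB libraries of 6694c2 were all low, 3 of the 4 KOA libraries were below WT, and in 6419c5 KOA lay above WT while KOB overlapped it. Itga6 fell by 0.44 ± 0.10 (adjusted p 0.00236) in 6694c2. In 6419c5 the value was 0.25 ± 0.12 (adjusted p 0.102), which was not called, and KOA alone gave 0.42 ± 0.14 (adjusted p 0.0253). The value over both lines was called without KOA 2 of 6694c2 (0.25, adjusted p 0.0330), and that of KOA was not called without WT 1 (0.28, adjusted p 0.146), KOA 1 (0.33, adjusted p 0.110) or KOA 3 (0.40, adjusted p 0.0707), or with quantile normalization (0.31, adjusted p 0.0633). The effect in 6694c2 less that in 6419c5 was -0.68 ± 0.16 (adjusted p 0.00302).

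Itga7, a laminin receptor chain best known from muscle, was low. Its levels were 2.88, 2.50, 2.29 and 2.45 TPM in 6694c2 WT, 6.03, 8.10, 5.82 and 5.54 in KOA and 3.66, 5.36, 4.76 and 3.33 in KOB. For 6419c5 they were 2.96, 4.79 and 3.62 TPM in WT, 3.97, 4.29 and 5.78 in KOA and 3.83, 4.09 and 5.44 in KOB. All 8 KO libraries of 6694c2 were above all WT libraries, and the lines of 6419c5 overlapped. Itga7 rose by 0.81 ± 0.13 (adjusted p 0.000118) in 6694c2, with a value of 0.22 ± 0.15 (adjusted p 0.268) in 6419c5. The difference (0.59 ± 0.20, adjusted p 0.0388) was called, but not with quantile normalization (0.47, adjusted p 0.0982). It was also lost without any 1 of WT 2, WT 3, WT 4, KOB 2 or KOB 3 of 6694c2 or WT 2, WT 3, KOA 1, KOA 2, KOB 1 or KOB 2 of 6419c5, at values of 0.44 to 0.60.

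Of the remaining alpha chains, Itga2b encodes the platelet alpha chain that pairs with beta-3. Itga2b gave 1.82, 2.48, 2.35 and 2.47 TPM in 6694c2 WT, 1.80, 1.99, 2.71 and 2.36 in KOA and 0.673, 1.08, 1.57 and 1.37 in KOB, and 1.65, 1.33 and 1.42 TPM in 6419c5 WT, 1.47, 1.29 and 1.75 in KOA and 1.56, 2.41 and 2.12 in KOB. KOB of 6694c2 was the one line wholly below its WT line. Itga2b fell by 0.32 ± 0.12 (adjusted p 0.0429) in 6694c2, and gave 0.15 ± 0.14 (adjusted p 0.397) in 6419c5. The 6694c2 call was lost without any 1 of WT 2 to WT 4, KOA 1, KOA 2, KOB 1 or KOB 2 of that clone or KOA 1 of 6419c5, at values of -0.32 to -0.26, and its adjusted p ran from 0.0501 to 0.117. The clones' difference (-0.48 ± 0.18, adjusted p 0.0604) was not called, and was called with median-of-ratios scaling (-0.48, adjusted p 0.0493) and with quantile normalization (-0.57, adjusted p 0.0278). Platelet and megakaryocyte markers summed over 7 genes ran from 7.89 to 226 TPM per library, and their part in these values was not tested. Itga10, a cartilage collagen receptor chain, had line means of 0.611 to 1.37 TPM, and passed the expression filter only through WT and KOB of 6419c5. Itga10 gave -0.33 ± 0.11 (adjusted p 0.0199) in 6419c5, a call lost without WT 1 (-0.30, adjusted p 0.0725) or WT 3 (-0.32, adjusted p 0.0650).

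Itga4 and Itga9 encode close relatives that bind VCAM-1 and tenascin-C, and both chains are common on leukocytes. Itga4 stood at 1.86, 2.39, 2.098 and 2.25 TPM in 6694c2 WT, 2.70, 1.64, 4.09 and 3.25 in KOA and 2.32, 2.71, 2.36 and 2.66 in KOB, and at 1.93, 3.46 and 3.62 TPM in 6419c5 WT, 2.19, 4.41 and 2.35 in KOA and 3.18, 3.59 and 3.03 in KOB. In 6694c2, 5 of 8 KO libraries were above all WT libraries and 1 was below them, and in 6419c5 the lines overlapped. Neither clone was called for Itga4, with 0.22 ± 0.17 (adjusted p 0.329) and 0.049 ± 0.19 (adjusted p 0.862). Itga9 line means ran from 0.229 to 2.62 TPM. Itga9 was not called either (-0.18 ± 0.33, adjusted p 0.707 and -0.53 ± 0.38, adjusted p 0.287), and in 6419c5 it became lower without library KOA 2 (-0.88, adjusted p 0.0165), which held 5.90 TPM against 0.714 and 0.510 in the rest of its line.

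Of the beta chains, Itgb3 gave the widest difference between clones among the 26 tested members. Its product pairs with alpha-v to bind vitronectin and osteopontin. Itgb3 stood at 14.4, 9.34, 9.94 and 11.6 TPM in 6694c2 WT, 6.35, 9.17, 12.1 and 11.6 in KOA and 4.36, 3.05, 4.53 and 4.30 in KOB. In 6419c5 its levels were 11.1, 13.6 and 18.8 TPM in WT, 55.2, 34.8 and 35.0 in KOA and 47.8, 39.4 and 53.6 in KOB. In 6694c2 the KOB libraries were below all WT libraries, KOA overlapped WT, and in 6419c5 the lowest KO library was well above the highest WT library. Itgb3 fell by 0.74 ± 0.18 (adjusted p 0.00265) in 6694c2, with -1.28 in KOB, and rose by 1.55 ± 0.20 (adjusted p 8.15e-06) in 6419c5. The difference was -2.30 ± 0.27 (adjusted p 6.64e-06). The WT lines were not called apart, at 11.3 ± 2.25 TPM (SD, n = 4) and 14.5 ± 3.96 TPM (SD, n = 3).

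Itgb4, the hemidesmosome chain, was higher in the KO lines of 6419c5 and was not called in 6694c2. Its values were 213, 223, 197 and 217 TPM in 6694c2 WT, 236, 214, 238 and 236 in KOA and 218, 266, 242 and 217 in KOB. Libraries of 6419c5 held 61.8, 73.6 and 92.5 TPM in WT, 138, 126 and 166 in KOA and 154, 138 and 160.5 in KOB. The 6694c2 lines overlapped, and every KO library of 6419c5 was above every WT library. Itgb4 gave 0.13 ± 0.091 (adjusted p 0.273) in 6694c2, which was not called, and rose by 0.96 ± 0.11 (adjusted p 1.28e-06) in 6419c5 (difference -0.82 ± 0.14, adjusted p 0.000266). The WT lines stood 1.49 ± 0.11 (adjusted p 8.14e-09) apart, higher in 6694c2.

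As a share of the summed TPM of the 8 beta genes, which does not depend on how a library is scaled, Itgb4 held 30.4% ± 0.904 (SD, n = 4) in 6694c2 WT, 35.2% ± 3.18 in KOA and 43.5% ± 2.17 in KOB. The share was higher in 8 of 8 KO libraries, by 8.91 percentage points on average (exact two-sided permutation test, p = 0.0101, adjusted p = 0.0238 over the 4 share tests). In 6419c5 it was 9.45% ± 0.376 (SD, n = 3) in WT, 21.5% ± 2.45 in KOA and 21.3% ± 1.37 in KOB. Here 6 of 6 KO libraries were higher, by 11.96 points (exact two-sided permutation test, p = 0.0119, the smallest p this design allows, adjusted p = 0.0238). The summed beta TPM averaged 698 (WT), 662 (KOA) and 541 (KOB) for 6694c2, and 801, 665 and 707 in the same lines of 6419c5, so the share took in the level of Itgb1 as well as that of Itgb4. In 6419c5 the adjusted p of the share was 0.0714 when any WT library was left out. The unadjusted p was then the smallest that the libraries left allow, so this loss was set by their number. In 6694c2 the adjusted p was 0.0606 without the libraries of high Mir6236 (KOB 4 of that clone and WT 3 of 6419c5). It was 0.0303 without KOB 4 alone, at the same difference of 8.46 points. KO and WT libraries are treated as exchangeable in this test although KOA and KOB are different lines.

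**Figure D4:**
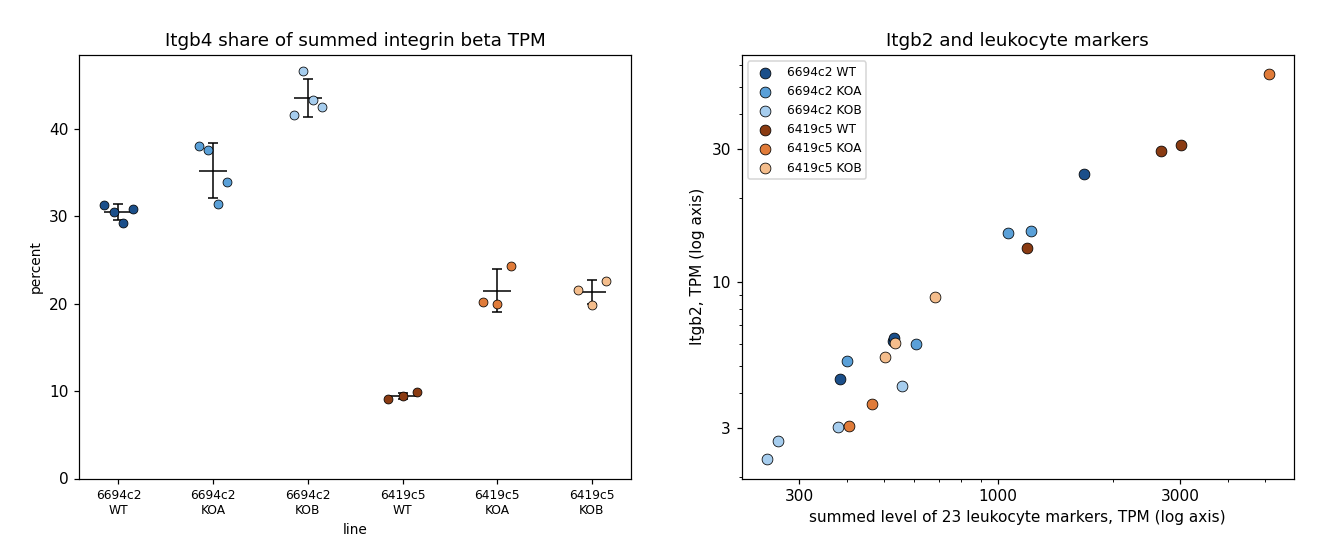
Left, Itgb4 as a percent of the summed TPM of the 8 integrin beta genes in each library, by line, with the mean and bars of 1 SD; right, Itgb2 TPM against the summed TPM of 23 leukocyte markers in each library, both axes on a log scale. All KO libraries lie above the WT libraries of their clone on the left, and on the right libraries with more leukocyte marker RNA have more Itgb2.

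Itgb5, whose product pairs with alpha-v, stood at 86.3, 99.8, 86.6 and 89.6 TPM in 6694c2 WT, 59.7, 78.0, 66.6 and 64.0 in KOA and 98.002, 101, 110.05 and 86.1 in KOB. WT of 6419c5 held 181, 173 and 186 TPM, KOA 106, 98.7 and 130.1 and KOB 136, 134 and 119. KOA of 6694c2 was below WT and KOB overlapped it, and both KO lines of 6419c5 were below WT. Itgb5 gave -0.16 ± 0.082 (adjusted p 0.146) over both lines of 6694c2, which was called with median-of-ratios scaling (-0.24, adjusted p 0.0360), with -0.43 in KOA and 0.12 in KOB, and fell by 0.58 ± 0.094 (adjusted p 7.68e-05) in 6419c5 (difference 0.43 ± 0.12, adjusted p 0.0152).

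Itgb8, which like Itgb6 encodes an alpha-v partner that activates TGF-beta, passed the expression filter only through the WT libraries of 6419c5, so that it had to differ there and its values are a description. Itgb8 stood at 0.210, 0.0287, 0.245 and 0.318 TPM in 6694c2 WT, 0.0973, 0.286, 0.619 and 0.484 in KOA and 0.404, 0.321, 0.327 and 0.322 in KOB, and at 1.37, 2.75 and 4.11 TPM in 6419c5 WT, 0.474, 0.285 and 0.749 in KOA and 0.671, 0.726 and 0.558 in KOB. No KO library of 6419c5 reached the lowest WT library. The log2 fold change was -1.18 in 6419c5 and 0.18 in 6694c2. Itgb7, the beta chain of lymphocyte integrins, had line means of 0.901 to 1.69 TPM and was not called in either clone (0.25 ± 0.23, adjusted p 0.432 and 0.23 ± 0.27, adjusted p 0.527).

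Itgb2 encodes the leukocyte beta-2 chain. Its levels were 6.15, 24.4, 6.29 and 4.51 TPM in 6694c2 WT, 5.24, 6.01, 15.03 and 15.2 in KOA and 2.32, 4.23, 3.03 and 2.70 in KOB. The 6419c5 libraries held 13.2, 31.0 and 29.3 TPM in WT, 3.65, 55.4 and 3.05 in KOA and 5.38, 8.80 and 6.03 in KOB. Single libraries stood far above their lines, WT 2 in 6694c2 and KOA 2 in 6419c5. Itgb2 was not called (-0.52 ± 0.56, adjusted p 0.502 in 6694c2 and -1.45 ± 0.65, adjusted p 0.0820 in 6419c5), and became lower in 6419c5 without KOA 2 (-2.06, adjusted p 0.00110). The summed TPM of 23 leukocyte markers was 384 to 1682 (WT), 401 to 1222 (KOA) and 247 to 559 (KOB) for 6694c2, and 1193 to 3025, 405 to 5122 and 505 to 682 for the same lines of 6419c5. In each of the 6 lines the library with the highest sum also had the highest Itgb2. Ptprc, which encodes CD45, ran from 0.524 to 12.8 TPM and was at 0 in no library. Cd3g and Nkg7 were at 0 in all libraries of 6694c2 WT, and Cd3e and Cd3g in all of 6419c5 WT. The part of leukocyte RNA in the values of Itgb2, Itgb7, Itga4 and Itga9 was not tested. In sorted bulk samples fewer cells of a type and less RNA per cell cannot be told apart.

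Among the laminin alpha genes, Lama5 was the main one in every line. Lama5 stood at 217, 204, 184 and 205 TPM in 6694c2 WT, 179.6, 169, 248 and 239.9 in KOA and 142, 164, 155 and 149 in KOB. Its levels in 6419c5 were 116, 129 and 164 TPM in WT, 134, 149 and 171 in KOA and 186, 214 and 178 in KOB. KOB was below WT in 6694c2 and above WT in 6419c5, and KOA overlapped WT in both. Lama5 gave -0.19 ± 0.11 (adjusted p 0.183) in 6694c2, where KOB alone fell by 0.41 ± 0.12 (adjusted p 0.0112) and the value over both lines was called with median-of-ratios scaling (-0.28, adjusted p 0.0141), and rose by 0.33 ± 0.12 (adjusted p 0.0381) in 6419c5 (difference -0.52 ± 0.16, adjusted p 0.0232). The 6419c5 call was lost under both other scalings (0.25 and 0.18, adjusted p 0.201), and without WT 1 (0.23, adjusted p 0.212) or WT 2 (0.30, adjusted p 0.120), KOA 2, KOA 3 or KOB 2 (adjusted p 0.0504 to 0.0824). The difference was not called with quantile normalization (-0.37, adjusted p 0.0601), nor without WT 1 of 6694c2 or WT 1 or WT 2 of 6419c5 (-0.49, -0.42 and -0.49).

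Lama4, a laminin chain of vessels and mesenchymal cells, stood at 2.097, 2.61, 2.44 and 2.44 TPM in 6694c2 WT, 2.97, 2.85, 4.82 and 4.52 in KOA and 3.18, 3.55, 3.85 and 2.58 in KOB. In 6419c5 it gave 3.53, 4.63 and 4.34 TPM in WT, 1.69, 1.45 and 1.84 in KOA and 6.72, 2.89 and 3.56 in KOB. KOA of 6694c2 was above WT, KOA of 6419c5 was below WT, and KOB of 6419c5 spread across WT. Lama4 gave 0.40 ± 0.16 (adjusted p 0.0519) in 6694c2 and -0.48 ± 0.18 (adjusted p 0.0423) in 6419c5, where KOA alone fell by 0.95 ± 0.21 (adjusted p 0.00178) (difference 0.88 ± 0.24, adjusted p 0.0105). The 6419c5 call was lost without any 1 of WT 2, WT 3, KOA 1, KOA 2, KOB 2 or KOB 3 of that clone or WT 3, WT 4 or KOB 1 of 6694c2, at an adjusted p of 0.0507 to 0.143. The 6694c2 value was called without any 1 of KOA 1, KOA 2 or KOB 4 of that clone or KOB 1 or KOB 2 of 6419c5, at an adjusted p of 0.0157 to 0.0392. Fibroblast and pericyte markers summed over 13 genes ran, in TPM, from 293 to 421 (WT), 282 to 962 (KOA) and 129 to 187 (KOB) for 6694c2, and from 1304 to 2134, 743 to 932 and 1827 to 2699 for 6419c5. Endothelial markers summed over 10 genes ran from 12 to 51.8 TPM. Their part in the levels of Lama4 was not tested.

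Lama3 and Lamb3 encode the alpha and beta chains of laminin-332. Lamb3 was called over both KO lines of 6694c2, and Lama3 was called in neither clone. Lama3 gave 6.30, 3.38, 6.48 and 5.43 TPM in 6694c2 WT, 27.0, 1.90, 1.28 and 1.18 in KOA and 5.73, 5.08, 4.34 and 3.89 in KOB. Lama3 gave 1.02, 1.99 and 1.002 TPM in 6419c5 WT, 4.78, 4.98 and 6.05 in KOA and 1.43, 1.86 and 0.830 in KOB. One library, KOA 1 of 6694c2, was far above all others, and without it KOA was the lowest line of that clone. Lama3 was not called with this library, at -0.31 ± 0.47 (adjusted p 0.649) in 6694c2 and 0.73 ± 0.54 (adjusted p 0.292) in 6419c5. Its line values were then -0.48 (KOA) and -0.13 (KOB) in 6694c2, and 1.44 (KOA) and 0.024 (KOB) in 6419c5, at adjusted p of 0.0875 to 0.983. Without KOA 1, Lama3 was called lower in 6694c2 (-0.75, adjusted p 0.00226) and different between the clones (-1.48, adjusted p 0.000363). It was also called in 6419c5 (0.73, adjusted p 0.00494). The 6419c5 value itself did not move, because KOA 1 belongs to 6694c2 and enters that test only through the spread shared by all lines.

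Lamb3, the beta chain of laminin-332, stood at 70.7, 46.0, 59.5 and 69.4 TPM in 6694c2 WT, 65.3, 19.9, 26.4 and 28.7 in KOA and 27.1, 36.3, 29.0 and 26.0 in KOB. Its 6419c5 values were 25.6, 31.3 and 30.6 TPM in WT, 47.7, 40.4 and 53.7 in KOA and 31.7, 19.49 and 25.8 in KOB. All KO libraries of 6694c2 but KOA 1 were below WT, and in 6419c5 KOA was above WT while KOB overlapped it. Lamb3 fell by 0.97 ± 0.22 (adjusted p 0.00190) in 6694c2, with -0.92 in KOA and -1.02 in KOB. In 6419c5 it gave 0.24 ± 0.25 (adjusted p 0.476) (difference -1.21 ± 0.33, adjusted p 0.0115), and KOB less KOA was -0.87 ± 0.29 (adjusted p 0.0470).

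Library KOA 1 of 6694c2 was thus the highest of its line for both Lama3 and Lamb3.

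**Figure D5:**
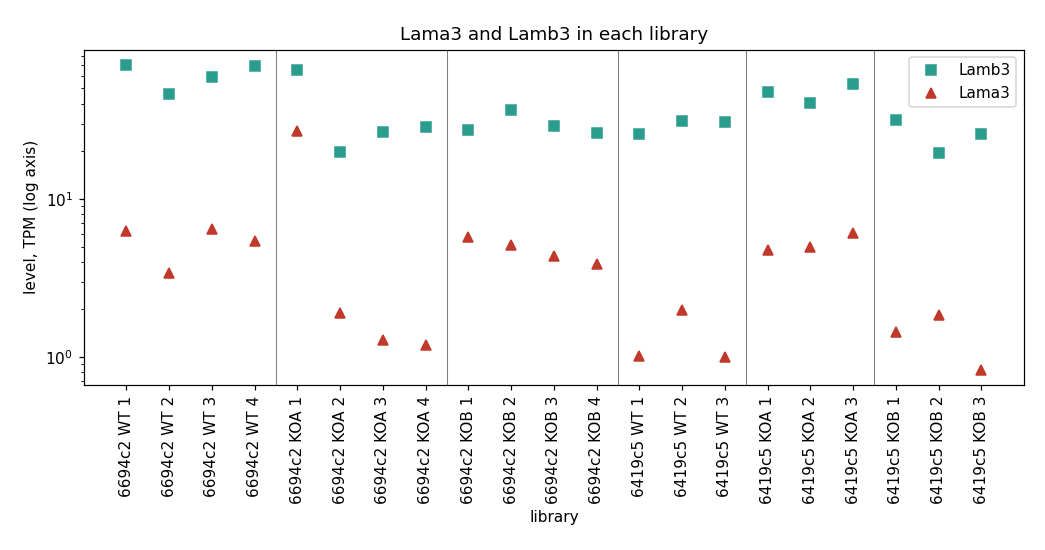
TPM of Lama3 and Lamb3, which encode chains of laminin-332, in each library (log axis), with libraries grouped by line. Lamb3 lies above Lama3 in every library, and Lama3 reaches 27.0 TPM in library KOA 1 of 6694c2 against 1.18 to 1.90 TPM in the other libraries of that line.

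Lamb2, which replaces beta-1 in laminins such as laminin-521, stood at 48.5, 47.5, 42.7 and 48.3 TPM in 6694c2 WT, 43.0, 68.4, 48.6 and 44.7 in KOA and 63.8, 66.1, 69.5 and 58.9 in KOB. Libraries of 6419c5 gave 35.6, 39.5 and 36.3 TPM in WT, 36.6, 37.0 and 52.2 in KOA and 57.9, 59.0 and 58.4 in KOB. KOB was above WT in both clones and KOA overlapped WT in both. Lamb2 rose by 0.28 ± 0.11 (adjusted p 0.0447) in 6694c2 and 0.40 ± 0.12 (adjusted p 0.0144) in 6419c5, with 0.46 and 0.64 in the KOB lines. Both calls were lost with median-of-ratios scaling (0.19, adjusted p 0.216 in 6694c2, and 0.31, adjusted p 0.0794 in 6419c5) and with quantile normalization (0.24, adjusted p 0.0939, and 0.29, adjusted p 0.0713), and the 6694c2 call was lost without any 1 of 12 libraries, WT 1 to WT 4, KOA 2, KOA 3 and KOB 1 to KOB 3 of that clone and KOB 1 to KOB 3 of 6419c5, at an adjusted p of 0.0508 to 0.139. The 6419c5 call was also lost without WT 1 (0.37, adjusted p 0.0542).

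Lamc1, the gamma chain of laminin-511 and most other laminins, gave 104, 95.7, 94.5 and 98.3 TPM in 6694c2 WT, 91.8, 89.7, 114 and 109.8 in KOA and 93.6, 105, 93.4 and 86.1 in KOB. For 6419c5 Lamc1 gave 98.1, 119 and 136 TPM in WT, 84.5, 75.4 and 86.8 in KOA and 109, 99.1 and 97.4 in KOB. The lines of 6694c2 overlapped, KOA of 6419c5 was below its WT line, and KOB overlapped it. Lamc1 gave -0.0087 ± 0.083 (adjusted p 0.946) in 6694c2 and fell by 0.35 ± 0.10 (adjusted p 0.00723) in 6419c5, with -0.50 in KOA. The call over both lines was lost without WT 3 (-0.24, adjusted p 0.0767). The clones' difference for Lamc1 was not called (0.34 ± 0.13, adjusted p 0.0537), and was called with median-of-ratios scaling (0.34, adjusted p 0.00959), with quantile normalization (0.44, adjusted p 0.00351) and without any 1 of KOA 1, KOA 2 or KOB 4 of 6694c2 or WT 1 or KOB 1 of 6419c5, at an adjusted p of 0.00977 to 0.0472.

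The KO lines of 1 clone differed from each other as well. In 6694c2, 5 members were higher and 10 lower in KOB than in KOA of 26, where 46.5% of all genes were called (23.6% higher and 22.9% lower). Itga5 (-2.72 ± 0.24, adjusted p 7.11e-08) and Lamb1 (-2.22 ± 0.19, adjusted p 4.08e-08) were lower in KOB, and Itga1 (1.17 ± 0.15, adjusted p 5.21e-06) and Itgb6 (1.05 ± 0.16, adjusted p 4.52e-05) higher. In 6419c5, 2 were higher and 2 lower of 26, against 17.4% of all genes (12.7% higher and 4.76% lower). These were Lama4 (0.96) and Lamb2 (0.49) higher in KOB, and Itga1 (-1.07) and Lamb3 (-0.87) lower, and the count ran from 2 to 7 when single libraries were left out, from its lowest without KOA 1 to its highest without KOA 2 of 6694c2. Set against WT, each line gave its own count. KOA of 6694c2 gave 2 members higher and 3 lower, where 22.7% of all genes were called (15.2% higher and 7.56% lower), and its KOB 4 and 10, where 48.6% were (29.2% and 19.4%). KOA of 6419c5 gave 7 and 8, where 31.8% of all genes were called (19.1% and 12.7%), and its KOB 8 and 4, where 43.3% were (28.5% and 14.7%). Both KO lines of a clone were set against the same WT libraries.

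The WT lines differed in 16 of 26 members, 8 higher and 8 lower in 6694c2, where 53.5% of all genes were called (21.5% higher and 32.0% lower) and the median over all genes was -0.11. Itgb4, Itga3, Itga2, Lama3 (1.45 ± 0.58, adjusted p 0.0440) and Lamb3 (1.03 ± 0.27, adjusted p 0.00382) were higher in 6694c2. Itgb5 (-0.98 ± 0.10, adjusted p 2.99e-07) and Itgb6 (-0.88 ± 0.18, adjusted p 0.000435) were higher in 6419c5. Itgb8 is counted among the 8 lower members though it was tested only because 6419c5 WT was high, and 15 of 25 were called without it. Itga10 is also among these 8 (-0.50), and it passed the filter only through WT and KOB of 6419c5. Its difference between the WT lines is therefore a description, and it is still counted in the 15 of 25. Left out one at a time, WT 2 or WT 3 of 6419c5 brought the count of 16 to 10, with Itgb8 then no longer tested.

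Genes that work with the integrins were also counted. Of 28 adaptors and focal adhesion genes, 3 rose and 10 fell in 6694c2 (median -0.19, and 0.07 over all genes), and 5 rose and 7 fell in 6419c5 (median 0.01, and 0.08 over all genes). Over all genes 37.4% were called in 6694c2 (23.9% higher and 13.5% lower) and 41.4% in 6419c5 (26.5% and 15%), which is the background for the counts of this list and of those that follow. Parvb, an adaptor that links integrin-linked kinase to actin, fell in both clones (-1.40 ± 0.13, adjusted p 2.64e-07 and -0.81 ± 0.15, adjusted p 0.000364). Ilk, the kinase-like partner of Parvb, fell as well (-0.35 ± 0.055, adjusted p 6.81e-05 and -0.19 ± 0.064, adjusted p 0.0206). Vcl, which encodes vinculin, fell by 0.64 ± 0.10 (adjusted p 5.86e-05) in 6694c2 and gave -0.083 ± 0.11 (adjusted p 0.590) in 6419c5.

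Of 17 basement membrane and laminin partner genes 12 were tested, and 3 rose and 5 fell in 6694c2 (median -0.13) while 5 rose and 2 fell in 6419c5 (median 0.23). Nid1 encodes nidogen-1, which binds the laminin gamma-1 chain and links it to collagen IV. It fell by 1.49 ± 0.13 (adjusted p 8.03e-08) in 6694c2 and gave 0.35 ± 0.15 (adjusted p 0.0657) in 6419c5, a difference of -1.84 ± 0.20 (adjusted p 2.31e-06). Col4a1 and Col4a2, which encode the main collagen IV chains, fell in 6694c2 (-0.65 ± 0.068, adjusted p 7.53e-07 and -0.79 ± 0.082, adjusted p 7.08e-07) and were not called in 6419c5. Col4a5 fell in both clones (-0.83 ± 0.13, adjusted p 5.42e-05 and -1.01 ± 0.15, adjusted p 2.45e-05). Of 8 hemidesmosome and tetraspanin genes 7 were tested, with 1 higher and 2 lower in 6694c2 (median -0.10) and 2 and 2 in 6419c5 (median -0.01). The tetraspanin Cd9, which associates with beta-1 integrins, fell in both clones (-0.62 ± 0.066, adjusted p 9.7e-07 and -0.66 ± 0.076, adjusted p 1.98e-06), and Cd82 rose in both (0.30 ± 0.083, adjusted p 0.00857 and 0.66 ± 0.10, adjusted p 2.86e-05). Cd151, the tetraspanin partner of alpha-3 and alpha-6 integrins, fell by 0.40 ± 0.063 (adjusted p 8.02e-05) in 6694c2 and gave -0.0059 ± 0.073 (adjusted p 0.958) in 6419c5.

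Of 8 further genes with Itg symbols outside the rule, 5 were tested. In 6694c2, 0 were called by limma (0 at an unadjusted p under 0.05), and in 6419c5 1 was higher and 2 were lower. Itgav, which encodes the alpha-v partner of the beta-3, beta-5, beta-6 and beta-8 chains, rose by 0.58 ± 0.15 (adjusted p 0.00467) in 6419c5 and gave -0.0036 ± 0.13 (adjusted p 0.987) in 6694c2. The leukocyte chains Itgax (-1.27 ± 0.34, adjusted p 0.00610) and Itgal (-1.08 ± 0.32, adjusted p 0.0111) fell in 6419c5, next to the leukocyte marker sums given with Itgb2. By line, 0 of the 5 tested genes were called lower in KOA of 6419c5, where 12.7% of all genes were. Its KOB had 3 called lower, where 14.7% of all genes were.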

How the data were processed

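RNA was extracted from sorted tumour cells and sequenced on an Illumina NextSeq, per the labels' protocols. The deposited values were gene-level TPM, which the authors made with Salmon on the mouse build mm10, per the submitters' processing notes. Which Salmon version and annotation were used, and how transcripts were joined into genes, is not given in the sources used here. TPM are relative levels and hold no read depth, so the precision is that of the spread between libraries. Columns of the table were matched to samples by clone and line, with 0 columns left unmapped. The letters of the table and the numbers of the labels for KO lines and for libraries are not tied by any source, so library numbers here are names, and the KO effect of a clone is the same either way.

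The analysis used log2(TPM + 1), a pseudocount of 1, and the 14337 genes that reached 1 TPM in 3 or more libraries. One limma 3.58.1 model (R 4.3.3, statmod 1.5.0; eBayes with trend) held a mean for each of 6 lines over 21 libraries, with 15 residual and 3.12 prior degrees of freedom. Tests were two-sided, with Benjamini-Hochberg adjustment over all tested genes and calls under 0.05. Shares were compared by exact two-sided permutation tests, adjusted over 4. The limma and permutation steps were tested on simulated data. Python 3.11.15, numpy 2.4.6, pandas 2.3.3 and matplotlib 3.10.9 were used for the rest. Promoters came from RefSeq (GRCm38.p6) and gene positions from GENCODE (GRCm38, the assembly of mm10), and 10 short words were searched on both strands.

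Values in every library are given for members called in either clone or in their difference with a line mean of at least 2 TPM, up to 20 by size. They are also given, whatever the values, for 15 genes picked for their role, many of them among the called members. Of each partner list up to 4 genes with the smallest p were named. Some genes, and the results that need them, are not reported here, though counts over all members include them. The members and lists were chosen with earlier results of these data known. Alternatives were other pseudocounts, filters and scalings, line as a random effect, a block for the library number, and leaving out each library or those with high Mir6236.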

Additional observations from a re-analysis of the deposited data

Results flagged for a closer look

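Single libraries stood apart from the other 3 of their line in 8 of 78 sets of 4 libraries tested in 6694c2, by the gap to the nearest library over the range of the line. Chance flags about 1 in 20 such sets. In the WT line these were Itga5 in WT 3 (122 TPM, against 136 to 139 in the others), Itga6 in WT 1 (158 TPM, against 171 to 173) and Itgb2 in WT 2 (24.4 TPM, against 4.51 to 6.29). In KOA they were Itgb4 in KOA 2 (214 TPM, against 236 to 238), Itgb6 in KOA 1 (2.397 TPM, against 1.08 to 1.16) and Lama3 in KOA 1 (27.0 TPM, against 1.18 to 1.90). In KOB they were Itgb3 in KOB 2 (3.05 TPM, against 4.30 to 4.53) and Itgb8 in KOB 1 (0.404 TPM, against 0.321 to 0.327). Lines of 3 libraries, all of 6419c5, were not tested in this way.

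The KO effect differed between the clones for 13 members by the interaction term of the limma model (adjusted p under 0.05). As 6694c2 less 6419c5 on the log2 scale, the difference was -2.30 for Itgb3, -1.47 for Itga2, -1.21 for Lamb3, -1.15 for Itga3, -1.01 for Lamb1, -0.84 for Itga1, -0.82 for Itgb4, -0.68 for Itga6 and -0.52 for Lama5. It was 1.36 for Itgb8, 0.88 for Lama4, 0.59 for Itga7 and 0.43 for Itgb5. Of these 13, Itga2, Itga3 and Itgb3 were called in opposite directions in the clones, and Itga1 and Lamb1 in the same direction with unequal size. In 6694c2 Itga2, Itga3 and Itgb3 were called in KOB and not in KOA by itself. Itgb8 passed the expression filter only through 6419c5 WT, so its difference is a description, and 12 members are left without it.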

How the results depend on the processing

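Of 121 gene results (each a gene in a comparison), 7 changed sign under some alternative; 0 of these were among the 88 called, and 0 of 25 sign changes were called. Medians of ratios gave -0.015 for Itga4 in 6419c5. Quantile normalization gave 0.15 for Itgb1 and -0.070 for Itgb7 in the difference between clones. A pseudocount of 0.1 gave 0.10 for Itgb6 in that difference. Leaving out the libraries of high Mir6236 gave -0.12 for Itgb7 there and 0.013 for Lamc1 in 6694c2. With single libraries left out, the ranges were -0.044 to 0.010 for Itga10, -0.28 to 0.014 for Itga9 and -0.038 to 0.019 for Lamc1 in 6694c2, -0.16 to 0.17 for Itga4 in 6419c5, and -0.20 to 0.084 for Itgb1 and -0.14 to 0.21 for Itgb7 in the difference.

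Line as a random effect gave by limma 0 member calls for 6694c2, 2 for 6419c5 and 0 for the difference (3, 8 and 5 at an unadjusted p under 0.05), against 13, 16 and 13. Without the libraries of high Mir6236, 9 were called in 6419c5 (7 higher, 2 lower) and 10 between the WT lines, and the Itgb4 share differed by 8.46 points (adjusted p 0.0606) and 12.1 points (adjusted p 0.0714). The 12.1 points had the smallest unadjusted p that the libraries left allow. Itgb8 was not tested in any fit that left out a WT library of 6419c5. Single libraries left out gave 10 to 17 calls in 6419c5 (10 without WT 3), 2 to 7 between its KO lines, 10 to 18 between the WT lines, and an Itgb4 share difference of 11.4 to 12.3 points in 6419c5. Between same-numbered libraries the deviations over all genes had r of -0.12 to 0.16 (12 pairs, 6694c2) and -0.15 to 0.17 (9 pairs, 6419c5). The median r was -0.025 and 0.053, against -0.023 and -0.046 for libraries of unlike number. Library 2 had the highest leukocyte marker sum in every line except 6694c2 KOA. Whether the numbers mark a pairing cannot be decided from these values. With the library number as a replicate block, 12, 15 and 14 members were called, and the Itgb4 share differences, whose means this block cannot move (8.91 and 11.96 points), were not called (adjusted p 0.0741 each). For the share in 6419c5 the unadjusted p under the block was the smallest it allows, so that loss was set by the design. Under the block Lama4 in 6419c5 (adjusted p 0.0611), Lamb2 in 6694c2 (0.0526) and Lamb1 in 6694c2 KOA (0.0745) were not called, and the Itga2b difference was (0.0442). The causes were not tested.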

Other observations

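Of 18 genes for integrin ligands other than laminins, 15 were tested; 3 rose and 8 fell in 6694c2 (median -0.32) and 6 rose and 5 fell in 6419c5 (median -0.01), where the medians over all genes were 0.07 and 0.08 and 37.4% and 41.4% of all genes were called. Tnc, which encodes tenascin-C, fell by 2.47 ± 0.26 (adjusted p 8.84e-07) in 6694c2 and gave -0.19 ± 0.30 (adjusted p 0.645) in 6419c5. Spp1, which encodes osteopontin, a ligand of alpha-v beta-3, fell in both clones (-0.64 ± 0.10, adjusted p 0.000111 and -1.10 ± 0.12, adjusted p 1.19e-06). Mfge8, another ligand of alpha-v integrins, fell by 0.35 ± 0.061 (adjusted p 0.000187) in 6694c2 and rose by 0.60 ± 0.070 (adjusted p 2.62e-06) in 6419c5. Nov, which encodes the matricellular protein CCN3, fell by 1.71 ± 0.17 (adjusted p 2.86e-07) in 6419c5 and gave 0.14 ± 0.14 (adjusted p 0.479) in 6694c2.

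Markers of other cell types were counted in the same fit, in which 37.4% of all genes were called in 6694c2 and 41.4% in 6419c5. Of 23 leukocyte genes 19 were tested, with 0 higher and 1 lower in 6694c2 and 1 higher and 4 lower in 6419c5. Among the latter 4 were the macrophage gene Lyz2 (-2.50 ± 0.80, adjusted p 0.0174) and Coro1a (-1.34 ± 0.45, adjusted p 0.0217), while Cd14 rose by 0.64 ± 0.15 (adjusted p 0.00210). By line, 0 were called by limma in KOA of 6419c5 (1 at an unadjusted p under 0.05), where 31.8% of all genes were. Its KOB gave 1 higher and 10 lower, where 43.3% of all genes were called. Library KOA 2 held the highest leukocyte marker sum of that clone, 5122 TPM against 1193 to 3025 in WT. Of 13 fibroblast and pericyte genes, 0 rose and 2 fell in 6694c2, among them Pdgfrb (-1.59 ± 0.24, adjusted p 4.68e-05). In KOA of 6694c2 alone 3 rose and 0 fell (median 0.44), where 22.7% of all genes were called. Its KOB gave 1 higher and 9 lower (median -1.24), where 48.6% of all genes were called. In 6419c5, 0 rose and 5 fell, among them Dcn (-3.68 ± 0.42, adjusted p 1.65e-06) and Acta2 (-1.20 ± 0.17, adjusted p 2.38e-05). By line, 0 rose and 7 fell in its KOA, where 31.8% of all genes were called. KOB of 6419c5 gave 4 higher and 4 lower, where 43.3% were. Not every gene of the list was lower in 6419c5. Col1a1 stood at 431, 515 and 669 TPM in 6419c5 WT, 324, 327 and 411 in KOA and 1317, 924 and 966 in KOB, and Col1a2 at 227, 251 and 120.2 TPM in WT, 213, 185 and 251 in KOA and 668, 444 and 463 in KOB, with every KOB library above every WT library for both. Over both KO lines neither was called (0.20 ± 0.31, adjusted p 0.637 and 0.81 ± 0.35, adjusted p 0.0693), and the pair was named after its values were seen. Endothelial genes gave 0 calls by limma in 6694c2 (0 at an unadjusted p under 0.05) and 1 higher in 6419c5 of 8 tested, Vwf (0.43 ± 0.14, adjusted p 0.0164). Of 3 tested platelet genes, Ppbp fell by 0.68 ± 0.22 (adjusted p 0.0207) in 6694c2, and in 6419c5 Gp1bb rose by 0.48 ± 0.17 (adjusted p 0.0280) and Pf4 fell by 2.25 ± 0.79 (adjusted p 0.0294). These 3 genes gave 0 calls by limma in KOA of 6419c5 (0 at an unadjusted p under 0.05) and 1 higher and 2 lower in its KOB. The all-gene shares called there were 31.8% and 43.3%. Platelet markers summed to 226 TPM in KOA 2 of 6419c5, against 62.0 to 213 in its WT libraries. Of 8 epithelial genes, 2 rose and 2 fell in 6694c2 (median 0.10) and 5 rose and 1 fell in 6419c5 (median 0.76). In 6419c5 Krt19 rose by 2.11 ± 0.16 (adjusted p 1.72e-08), Cdh1 by 1.09 ± 0.14 (adjusted p 5.04e-06) and Krt8 by 0.96 ± 0.11 (adjusted p 3.05e-06). The epithelial genes named are all from those that rose, so they do not stand for the whole list. The part of these cell types in the members' values was not tested.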
